A study of Mus musculus with 16 samples.

Results

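The 10 genes described here encode subunits of the AMPA and NMDA receptors, the ion channels through which glutamate acts at most fast excitatory synapses of the brain. They are Gria1, Gria2, Gria3 and Gria4, which encode the AMPA receptor subunits GluA1 to GluA4, and Grin1, Grin2a, Grin2b, Grin2c, Grin2d and Grin3a, which encode NMDA receptor subunits. They were picked by symbol from the 55385 genes of a count table, and all 10 were among the 17132 genes with enough counts to be tested. The measurements came from sequencing of polyadenylated RNA of the hippocampus, the brain region whose excitatory circuits serve memory and spatial navigation. The mice were 9 months old and fell into 4 groups of 4 libraries, each with 2 females and 2 males. 5xFAD-Dp16 mice carried both of the modifications that follow. 5xFAD mice carry human amyloid precursor and presenilin transgenes with familial Alzheimer mutations, driven by the neuronal Thy1 promoter. In Dp16 mice a stretch of mouse chromosome 16, the counterpart of much of human chromosome 21, is present in an additional copy. The fourth group was wild-type (WT) C57BL/6J mice. The labels give no background strain for the other groups and record no treatment. The p-values set differences against the spread of these 16 libraries within their groups. Libraries are called by group and by the number in their title.

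An AMPA receptor is a tetramer of GluA subunits that opens within milliseconds of glutamate binding and carries most of the resting synaptic current. GluA2 keeps calcium out of the channel, because its messenger RNA is edited at a single codon of the pore, so that a glutamine is replaced by an arginine. An NMDA receptor is built around the obligatory subunit GluN1, from Grin1, combined with GluN2 subunits (Grin2a to Grin2d) that set its kinetics or with GluN3 subunits. It admits calcium only when glutamate binding coincides with depolarization, which makes it the trigger of lasting synaptic change in CA1. In the adult hippocampus GluN2A and GluN2B are the main GluN2 partners.

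The AMPA receptor genes are close relatives, which bears on how well short reads can tell them apart. The coding sequence around the edited codon shows how close. The 4 sequences were read from GENCODE M21 transcripts of the mouse build GRCm38, on the strand of the transcript, and capitals mark the codon of the editing site.
Gria1: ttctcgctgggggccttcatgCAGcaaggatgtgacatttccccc
Gria2: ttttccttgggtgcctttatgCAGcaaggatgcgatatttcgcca
Gria3: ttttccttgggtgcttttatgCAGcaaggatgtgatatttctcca
Gria4: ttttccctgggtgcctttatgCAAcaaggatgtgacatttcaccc
Of the 45 bases, Gria1 shares 36 with Gria2, Gria3 shares 42 and Gria4 shares 39. All 4 genes carry a glutamine codon there in the genome, so the arginine of GluA2 comes from the RNA edit, which gene counts do not measure. Over whole transcripts no window of 75 bases was identical between any of the 10 genes. The longest identical run was 59 bases, between Gria3 and Gria4, and 56 bases between Gria2 and Gria3. Runs of that length are shorter than the reads, so a full read in such a stretch also holds bases that differ between the genes.

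The genes lie on 9 chromosomes, and Gria1 and Grin2c share chromosome 11. Grin2a lies on chromosome 16 (GRCm38, minus strand, 9567898 to 9995560) but outside the segment that Dp16 mice carry in 3 copies, taken here as the genes from Lipi to Zbtb21 (75540514 to 97962622). Gria2 lies on chromosome 3 (80681450 to 80802835, minus strand) and Grin1 on chromosome 2 (25291181 to 25319187, minus strand). Grin2b lies on chromosome 6 (135713233 to 136173511, minus strand) and Grin2c on chromosome 11 (115249169 to 115267243, minus strand). None of the 10 is inside the triplicated segment. Exons of Grin1 overlap those of an antisense gene, Grin1os, over 1307 bases, and exons of Grin2d overlap those of Gm45441 over 643 bases. The kit was strand specific, but the strand setting of the counting was not given in the sources used here, so a part of these counts could belong to the antisense partner.

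Libraries held between 16922937 and 25308693 counts. App, a gene of the triplicated segment, averaged 2946 ± 110 CPM in 5xFAD-Dp16, 1744 ± 81.3 in 5xFAD, 3182 ± 89 in Dp16 and 2004 ± 39.4 in WT (SD, n = 4 each; CPM are counts relative to library size, with sizes scaled by edgeR's TMM method). Thy1, whose promoter drives the transgenes, averaged 2525 ± 129 CPM in 5xFAD-Dp16, 2010 ± 607 in 5xFAD, 888 ± 40.7 in Dp16 and 749 ± 39.9 in WT, so App was higher in both groups with the duplication and Thy1 in both with the transgenes. All 8 markers of excitatory neurons, 7 of CA1 and CA3 pyramidal cells and 5 of dentate granule cells had counts in every library. The libraries also differed in markers of the thalamus, which lies next to the hippocampus. A score, the mean log2 CPM of 12 thalamic markers set to 0 at the WT mean, was 1.23 or more in 6 libraries and -0.36 or less in the other 10. The 6 were 5xFAD-Dp16 1, 5xFAD 6, 13 and 15, Dp16 14 and WT 4. Summed levels of the 12 markers ranged over 180 to 583 CPM in 5xFAD-Dp16, 197 to 610.3 in 5xFAD, 174 to 915 in Dp16 and 188 to 648 in WT. None of the 12 was at 0 in any library.

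Gria1 and Grin1 led the 10 genes in every group. Levels between genes can be compared only per length, and the deposited RPKM (reads scaled to gene model length and library size) was used for this. In WT, Gria1 stood at 192 ± 11 RPKM and Grin1 at 149 ± 6.92 (SD, n = 4). Gria2 followed at 41.7 ± 1.94, Gria3 at 25.3 ± 1.71, Grin2b at 22.4 ± 3.03 and Grin2a at 21.1 ± 3.19. Grin2c stood at 11 ± 0.769, Gria4 at 9.23 ± 1.87, Grin3a at 6.37 ± 0.946 and Grin2d at 4.07 ± 1.27. The WT libraries separated Gria1 from Grin1, Grin1 from Gria2, Gria2 from Gria3, and Grin2a from Grin2c without overlap. The ranges of the other neighbours in the order (Gria3 and Grin2b, Grin2b and Grin2a, Grin2c and Gria4, Gria4 and Grin3a, Grin3a and Grin2d) overlapped. The order rests on the length the authors assigned to each gene, 24787 bases for Grin2b and 4368 for Grin1. Exons in GENCODE M21 cover 9700 bases for Grin1, 15548 for Gria2 (10486 assigned) and 9859 for Gria3 (5437 assigned). For Gria4 (6305) and Grin2c (5037) both lengths were equal. Other lengths could therefore change the levels per length and parts of the order.

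The same order held in 5xFAD-Dp16. In 5xFAD, Grin2c (12.7 ± 1.22 RPKM) stood above Grin2a (12 ± 3.83), although the libraries of the 2 genes overlapped. In Dp16, Gria4 (10.4 ± 2.63 RPKM) stood above Grin2c (8.35 ± 1), again with overlap. Grin3b, the remaining NMDA receptor subunit gene, had between 0 and 23 counts per library and was not tested. Its exons overlap those of Tmem259 on the other strand over 1059 bases.

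Within each receptor family the make-up was alike in the 4 groups at its top. Gria1 gave 70.2 ± 2.21% of the summed AMPA receptor RPKM in 5xFAD-Dp16, 69.4 ± 3.61% in 5xFAD, 71.7 ± 1.87% in Dp16 and 71.5 ± 1.28% in WT (SD, n = 4 each). Grin1 gave 70 ± 1.25% of the NMDA receptor sum in 5xFAD-Dp16, 71 ± 2.78% in 5xFAD, 70.8 ± 1.43% in Dp16 and 69.7 ± 1.72% in WT. Among the GluN2 genes the shares moved more. Grin2b took 10.7 ± 0.736% in 5xFAD-Dp16, 7.54 ± 2.48% in 5xFAD, 10.8 ± 1.53% in Dp16 and 10.4 ± 1.3% in WT. Grin2a took 9.16 ± 1.3% in 5xFAD-Dp16, 7.11 ± 1.64% in 5xFAD, 9.51 ± 1.33% in Dp16 and 9.84 ± 1.47% in WT. Grin2c took 4.89 ± 0.676% in 5xFAD-Dp16, 7.72 ± 1.11% in 5xFAD, 3.81 ± 0.655% in Dp16 and 5.13 ± 0.318% in WT. The Grin2c share was thus highest in 5xFAD, where it ranged over 6.56% to 9.16%, against 4.73% to 5.51% in WT, with no overlap. These shares were not tested, and their size rests on the same assigned lengths as the order. A share can rise because the other genes of its family are lower, and the CPM of Grin2c overlapped between 5xFAD and WT.

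**Figure D1:**
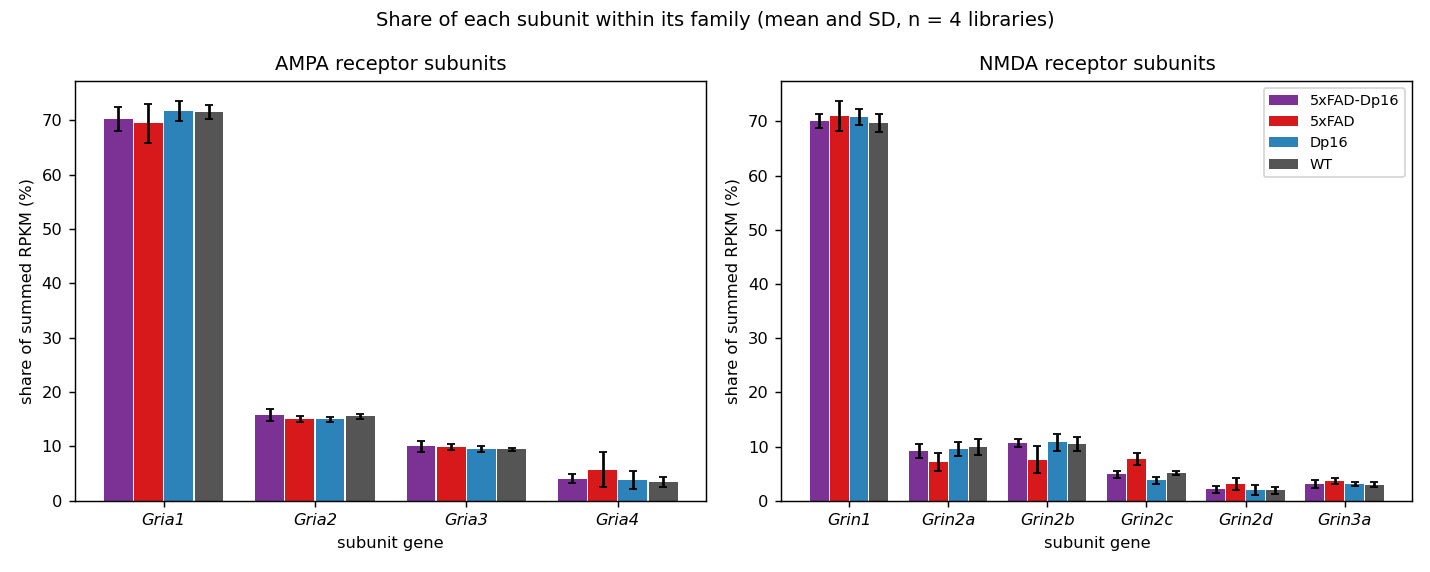
Share of each subunit gene in the summed RPKM of its receptor family (y axis, percent), for AMPA (left) and NMDA (right) receptor genes. Bars are means and lines the SD of 4 libraries, for 5xFAD-Dp16, 5xFAD, Dp16 and WT from left to right. Gria1 and Grin1 hold between 69.4% and 71.7% in every group, and Grin2c is highest in 5xFAD (7.72%) and lowest in Dp16 (3.81%).

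The comparison of 5xFAD with WT asked how the amyloid transgenes bear on these genes. The 6 most abundant of them per length in WT, Gria1, Gria2, Gria3, Grin1, Grin2a and Grin2b, all had lower means in 5xFAD, at 0.55 to 0.75 times the WT level. Of these, Grin2a, Gria2 and Grin1 fell. The less abundant genes Gria4, Grin2c, Grin2d and Grin3a had log2 fold changes between -0.15 and 0.21, and none of them was called. A gene was called when its p in edgeR's quasi-likelihood test, adjusted by Benjamini-Hochberg over all 17132 genes, was below 0.05. By this rule 3 of 10 members fell and 0 rose, where 7.26% of all genes were called and 1.96% fell. The median log2 fold change was -0.42 over the 10 genes and 0.027 over all genes. In bulk tissue, fewer cells of a type and less RNA per cell cannot be told apart.

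Grin2a encodes GluN2A, the GluN2 subunit of mature synapses, which gives receptors of fast decay. It stood at 149, 234, 219 and 95.5 CPM in 5xFAD 6, 10, 13 and 15, against 365, 247, 363 and 300.2 CPM in WT 2, 4, 7 and 16. Every 5xFAD library was below every WT library, with 5xFAD 15 lowest. How many of all genes separate groups in this way was not counted, here or for the genes below. The log2 fold change was -0.87 ± 0.25 (SE), or 0.549 times the WT level, with an adjusted p of 0.0499 in edgeR's test. Grin2b encodes GluN2B, the GluN2 subunit of slow decay that dominates early in development and binds CaMKII. Its levels were 219.9, 484, 404 and 147 CPM in 5xFAD 6, 10, 13 and 15, against 637, 429.8, 609.8 and 568 CPM in WT 2, 4, 7 and 16. The size of the difference was close to that of Grin2a (-0.83 ± 0.29), but 5xFAD 10 lay above WT 4, and the gene was not called (adjusted p = 0.101). The spread of Grin2b over the 5xFAD libraries, an SD of 157 CPM around a mean of 314, was wider than in WT (91.9 around 561).

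Grin1 encodes GluN1, without which no NMDA receptor forms. It was measured at 414, 634, 503 and 434 CPM in 5xFAD 6, 10, 13 and 15, against 697, 621, 622 and 688 CPM in WT 2, 4, 7 and 16. It fell by 0.41 on the log2 scale (SE 0.12, adjusted p = 0.0467), although 5xFAD 10 lay above WT 4 and WT 7. Grin2c encodes GluN2C, known chiefly from cerebellar granule cells. It had 61.7, 68.4, 67.1 and 48.7 CPM in 5xFAD 6, 10, 13 and 15, against 55.1, 52.1, 54.1 and 61.6 CPM in WT 2, 4, 7 and 16, a log2 fold change of 0.14 ± 0.11 (adjusted p = 0.436). The groups overlapped. Grin2d, which encodes the slowest GluN2 subunit, ranged over 21.2 to 38.1 CPM in 5xFAD and 18.5 to 34.9 in WT (0.21 ± 0.24). Grin3a, which encodes a subunit that lowers calcium flow, ranged over 32.9 to 63.8 CPM in 5xFAD and 42.7 to 55.8 in WT (-0.15 ± 0.17). Neither difference exceeded the spread between libraries.

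Gria2, the gene of the subunit that makes AMPA receptors calcium-impermeable, fell. It had 308, 375, 311 and 217 CPM in 5xFAD 6, 10, 13 and 15, against 484, 404, 450.5 and 428 CPM in WT 2, 4, 7 and 16. The groups did not overlap, and the log2 fold change was -0.54 ± 0.16 (adjusted p = 0.0485). Gria1, whose product is added to synapses during potentiation, had 749.7, 1039.8, 828 and 516 CPM in 5xFAD 6, 10, 13 and 15, against 1193, 977, 1159 and 1150.3 CPM in WT 2, 4, 7 and 16. Its log2 fold change was nearly as large (-0.51 ± 0.19), but 5xFAD 10 lay above WT 4 and the gene was not called (adjusted p = 0.103). Gria3, which encodes a partner of GluA2 in hippocampal receptors, ranged over 78.3 to 139 CPM in 5xFAD and 122 to 156 in WT (-0.42 ± 0.15, adjusted p = 0.104). Gria4, whose product is known from fast-spiking interneurons and thalamic neurons, ranged over 47.9 to 90.4 CPM in 5xFAD and 48.4 to 71.7 in WT (0.12 ± 0.18). Both families thus hold genes that fell and genes that did not. The same 6 genes were below an unadjusted p of 0.05, as were 24.9% of all genes.

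**Figure D2:**
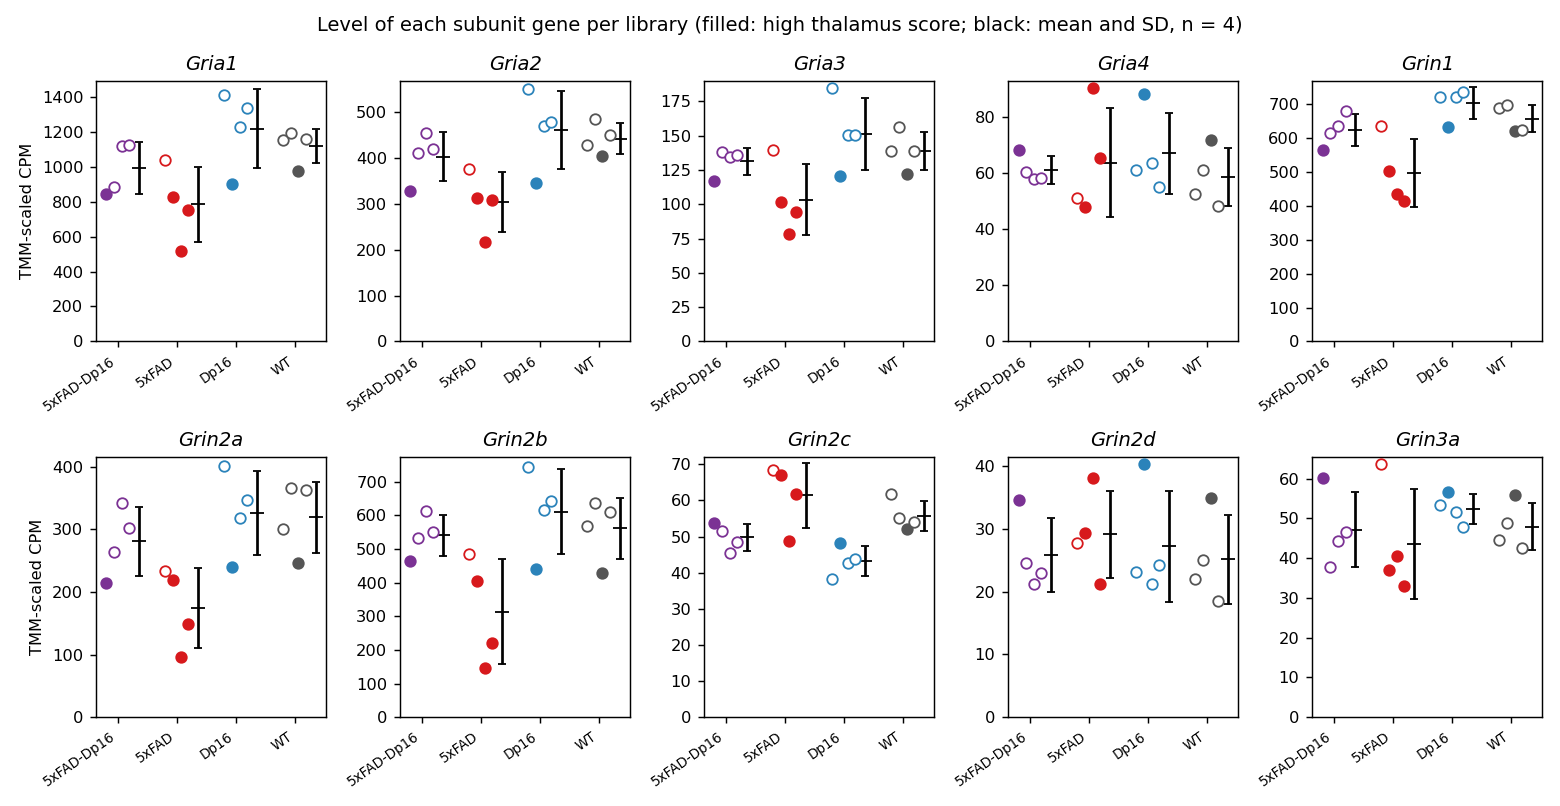
TMM-scaled CPM (y axis) of the 10 subunit genes, 1 panel per gene, in 5xFAD-Dp16, 5xFAD, Dp16 and WT from left to right. Points are libraries, filled where the thalamus score was high, and black lines give the mean and SD of 4 libraries. For Gria2 and Grin2a every 5xFAD library lies below every WT library, and 5xFAD 15 has the lowest value of the 16 for Gria1, Gria2, Gria3, Grin2a and Grin2b.

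All 3 calls were close to the threshold. In edgeR fits that left out 1 of the 16 libraries in turn, Grin2a lost its call in 11, Gria2 in 12 and Grin1 in 13, with log2 fold changes of -1.11 to -0.67 for Grin2a, -0.70 to -0.42 for Gria2 and -0.55 to -0.33 for Grin1. All 3 stayed called without Dp16 14 (7.61% of all genes called), 5xFAD-Dp16 1 (7.52%) or 5xFAD 10 (20%), where the count was 6 of 10 in the last case. Without 5xFAD-Dp16 8 the count was 2 (6.62% of all genes), and without 5xFAD 13 it was 1 (8.47%). Without any one of the other 11 libraries, which include all 4 of WT, it was 0. These fits called 3.22% to 6.35% of all genes. DESeq2, which called 12.4% of all genes, called 4 members (these 3 and Gria1, adjusted p = 0.0413). On log2(RPKM + 0.1), limma, which called 8.32%, also called 4 (these 3 and Grin2b, adjusted p = 0.041).

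Thalamus content moved with these genes. Markers of excitatory neurons were lower in 5xFAD in 8 of 8 cases (median log2 fold change -0.45, 0 called), those of CA1 and CA3 pyramidal cells in 7 of 7 (median -0.65, Wfs1 and Man1a fell), and all 12 thalamic markers were higher (median 0.75, 0 called). All 6 microglial markers rose (median 1.06). Markers of mature oligodendrocytes were higher in 7 of 7 cases (median 0.55, 0 called), and their score was 0.67, 0.39 and 1.03 in 5xFAD 6, 13 and 15, against -0.39 in 5xFAD 10. Dentate granule cell markers were lower in 5 of 5 cases (median -0.34, 0 called). The part of the oligodendrocyte, dentate and microglial markers in the falls was not tested. Of the 6 libraries with a high thalamus score, 3 belonged to 5xFAD. Over all 16 libraries, with group and sex in the model, the level of 7 of the 10 genes changed with the score in edgeR's test, where 11.2% of all genes did. Gria1 (-0.20 ± 0.045 log2 per unit of score), Gria2 (-0.17 ± 0.038), Gria3 (-0.17 ± 0.036), Grin1 (-0.11 ± 0.031) and Grin2a (-0.24 ± 0.064) fell with it. Gria4 (0.19 ± 0.045) and Grin2d (0.25 ± 0.053) rose with it. Grin2b had the steepest slope (-0.26 ± 0.082, adjusted p = 0.0576), and Grin2c (0.0098 ± 0.038) and Grin3a (0.015 ± 0.062) had slopes below their SE. The slopes rest on few libraries, since 0 genes of the 10 passed without Dp16 14, where 2.63% of all genes did, and 1 without 5xFAD 10, where 4.25% did. This slope was added after the data were seen.

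**Figure D3:**
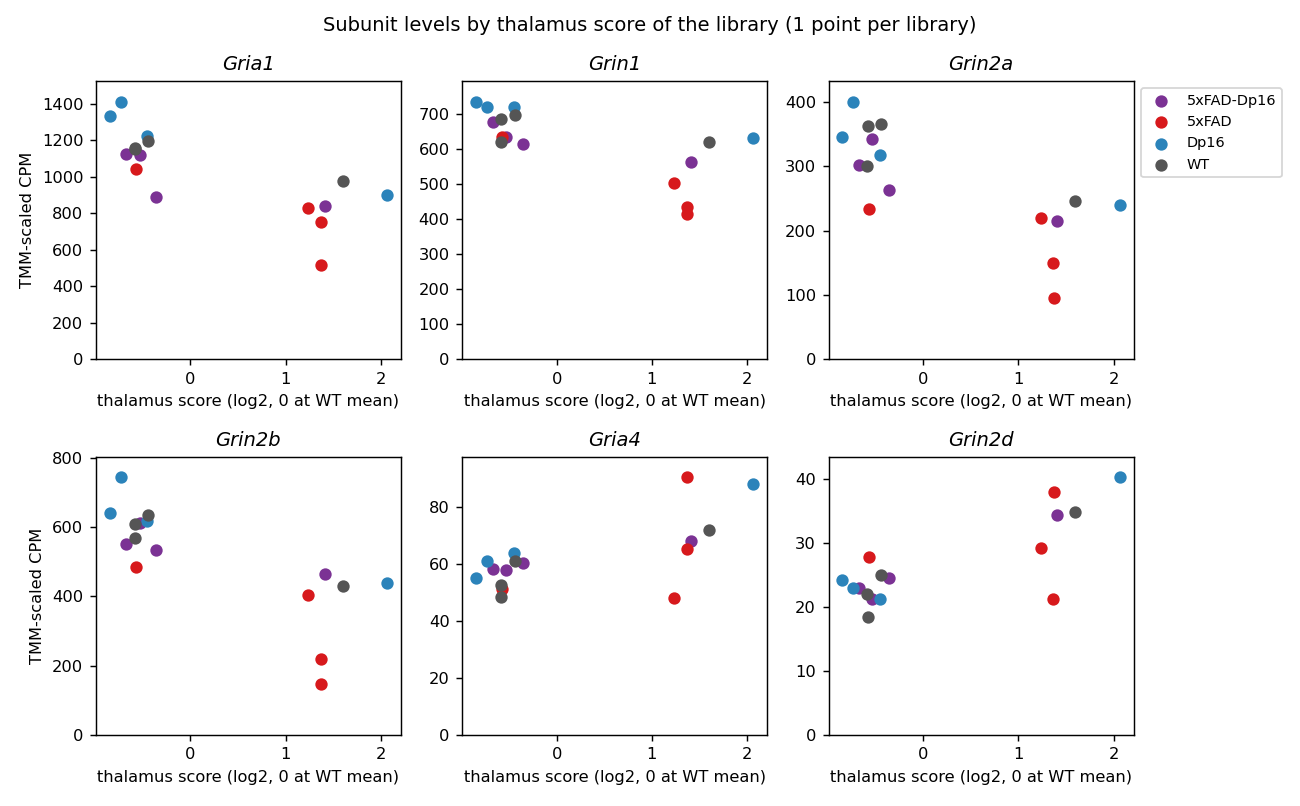
TMM-scaled CPM (y axis) against the thalamus score of the library (x axis, mean log2 CPM of 12 markers, 0 at the WT mean) for 6 subunit genes, 1 point per library, coloured by group. Gria1, Grin1, Grin2a and Grin2b are lower in most of the 6 libraries at the right (score 1.23 or more), Gria4 and Grin2d higher in most, and at the right the 5xFAD libraries hold the lowest Grin1 values.

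Levels within each class of library were set side by side. Among the 6 libraries of high score, Grin2a had 95.5 to 219 CPM in the 3 of 5xFAD, against 247 in WT 4. Among the 10 of low score, Grin2a had 234 CPM in 5xFAD 10, against 300.2 to 365 in the 3 of WT. Gria2 had 217 to 311 CPM in 5xFAD against 404 in WT at high score, and 375 CPM against 428 to 484 at low score. For both genes 5xFAD was lower in each class, where WT at high score and 5xFAD at low score are 1 library each. The same held for Gria1 and Grin2b, which were not called. Gria1 had 516 to 828 CPM in 5xFAD against 977 in WT at high score, and 1040 against 1150 to 1193 at low score. Grin2b had 147 to 404 CPM against 430 at high score, and 484 against 568 to 637 at low score. Gria3, Gria4, Grin2c, Grin2d and Grin3a were not lower in both classes. Grin1 had 414 to 503 CPM in 5xFAD against 621 in WT at high score, but at low score 5xFAD 10, at 634 CPM, lay within the WT range of 622 to 697.

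With the thalamus score as a term of the fit, all 3 stayed called, at -0.68 ± 0.18 for Grin2a (adjusted p = 0.0386), -0.41 ± 0.11 for Gria2 (adjusted p = 0.0286) and -0.32 ± 0.089 for Grin1 (adjusted p = 0.0393), where 6.25% of all genes were called. In the 10 libraries of low score alone, where 5xFAD is left with 1 library that is assumed to vary like the others, none of the 10 genes was called, as against 1.67% of all genes. Grin2a then stood at -0.50 ± 0.18, Gria2 at -0.24 ± 0.12, Grin1 at -0.11 ± 0.1 and Gria3 at 0.0041 ± 0.12. With the score of 8 pan-neuronal markers as a term, none was called either, in a fit that called 2.94% of all genes. Grin2a stood at -0.56 ± 0.28 in that fit, Gria2 at -0.27 ± 0.16 and Grin1 at -0.18 ± 0.11. Pan-neuronal scores averaged -0.17 ± 0.15 in 5xFAD and 0 ± 0.086 in WT (SD, n = 4).

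**Figure D4:**
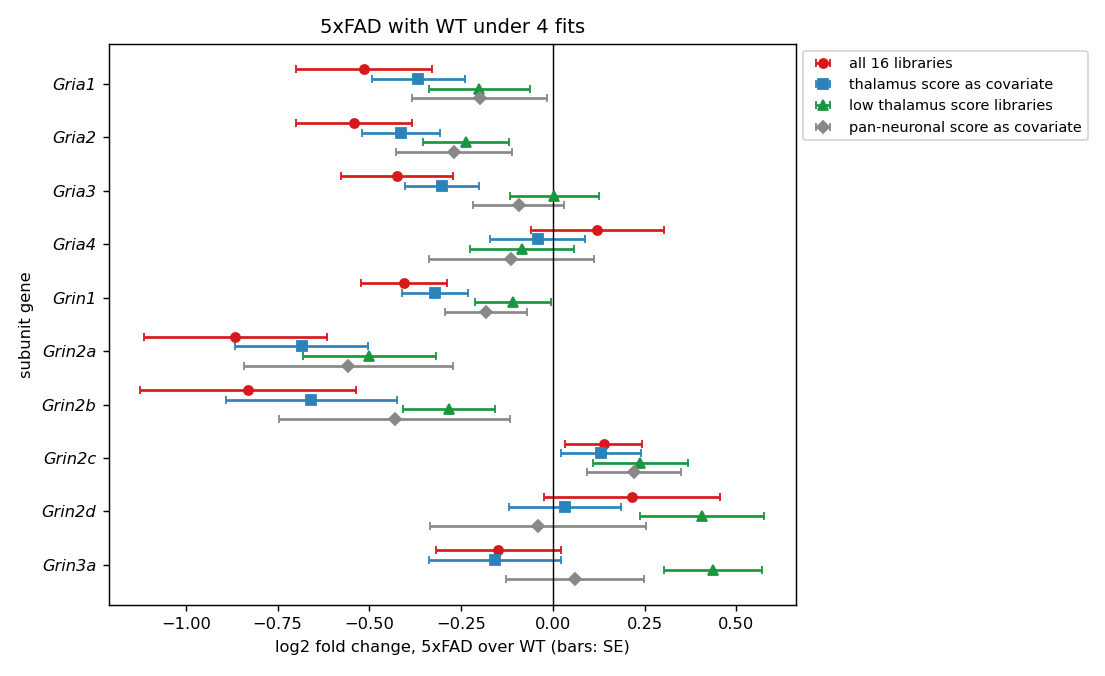
Log2 fold change of 5xFAD over WT (x axis, lines give the SE) for the 10 subunit genes under 4 fits, named in the legend. Grin2a stays at -0.50 or below in each of the 4, while Gria3 is -0.42 with all 16 libraries and 0.0041 in the 10 of low thalamus score.

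The proteins around the receptors were described from lists of genes. Of 25 genes of AMPA receptor auxiliary and trafficking proteins, 1 fell in 5xFAD (edgeR), 0 rose, and 20 had negative values (median -0.24). The 1 was Frrs1l, which encodes an endoplasmic reticulum protein that assembles AMPA receptors with their partners. It had 225, 316, 279 and 172 CPM in 5xFAD 6, 10, 13 and 15, against 395, 309, 394 and 354 CPM in WT 2, 4, 7 and 16 (-0.55 ± 0.16, adjusted p = 0.048). Of its libraries 5xFAD 10 lay just above WT 4, as for Grin1 and Grin2b. The call was lost in 13 of 16 fits without 1 library.

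Of 25 genes of postsynaptic scaffolds and NMDA receptor partners 0 were called, but all 25 had negative values (median -0.39). The smallest p-values belonged to Lrrtm2, a synaptic adhesion protein that binds AMPA receptors (-0.29 ± 0.088, adjusted p = 0.0576), and Homer1, a scaffold that links glutamate receptors to calcium stores (-0.63 ± 0.2, adjusted p = 0.0673). Homer1 ranged over 37.1 to 78.3 CPM in 5xFAD and 79.3 to 123 in WT, with no overlap. Of the 3 RNA editing enzymes 0 were called. Adar stood at -0.22 ± 0.077 (adjusted p = 0.0886). Adarb1, which edits the GluA2 pore codon, had 163 to 261 CPM in 5xFAD and 178 to 273 CPM in WT (0.18 ± 0.23). The highest Adarb1 level of each group was in 5xFAD-Dp16 1, 5xFAD 6, Dp16 14 and WT 4, all libraries of high thalamus score.

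The comparison of 5xFAD-Dp16 with 5xFAD asked how the duplication bears on these genes where amyloid transgenes are present. The same 6 genes were higher in 5xFAD-Dp16, by 0.33 to 0.79 on the log2 scale, but edgeR called 0 of the 10. Over all genes 0.304% were called. Below an unadjusted p of 0.05 were 6 members, 5 of these genes without Gria1 and also Grin2c, which was lower, beside 19.1% of all genes. DESeq2 called 1, Grin2a (0.72 ± 0.24, adjusted p = 0.0452), and 4.2% of all genes, and limma called 0 members. Without 5xFAD 10, edgeR called 6 of the 10 and 11.7% of all genes. The median over the 10 genes was 0.34 and over all genes -0.03.

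Grin2b had 466, 613, 551 and 533 CPM in 5xFAD-Dp16 1, 8, 9 and 11, against 219.9, 484, 404 and 147 CPM in 5xFAD 6, 10, 13 and 15 (0.79 ± 0.29, adjusted p = 0.183). Grin2a had 214, 342, 303 and 264 CPM in 5xFAD-Dp16 1, 8, 9 and 11, against 149, 234, 219 and 95.5 CPM in 5xFAD 6, 10, 13 and 15 (0.70 ± 0.25, adjusted p = 0.166). For both genes the lowest 5xFAD-Dp16 library, number 1, lay below 5xFAD 10 and the groups overlapped. That library is the 1 of high thalamus score in its group, while 5xFAD has 3. Gria2 stood at 0.41 ± 0.16, Gria3 at 0.35 ± 0.15, Gria1 at 0.34 ± 0.19 and Grin1 at 0.33 ± 0.12. Thalamic markers were lower in 5xFAD-Dp16 in 12 of 12 cases (median -0.70), and excitatory neuron markers higher in 8 of 8 (median 0.37). In the libraries of low thalamus score the differences were smaller for all 6 genes. Grin2b stood at 0.21, Grin2a at 0.36, Gria2 at 0.18, Grin1 at 0.044, Gria1 at 0.025 and Gria3 at -0.053, and the median over the 10 genes was 0.035. Grin3a turned to -0.54 ± 0.12 there (adjusted p = 0.0804), where 5xFAD is its 1 library of 63.8 CPM, the highest Grin3a level of all 16.

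Grin2c went the other way. It had 53.8, 45.3, 48.6 and 51.6 CPM in 5xFAD-Dp16 1, 8, 9 and 11, against 61.7, 68.4, 67.1 and 48.7 CPM in 5xFAD 6, 10, 13 and 15. The log2 fold change was -0.30 ± 0.11 (adjusted p = 0.158), with 5xFAD 15 inside the 5xFAD-Dp16 range. Of the partner lists 0 of 25 auxiliary genes were called (median 0.24, Grip1 0.52 ± 0.13 with an adjusted p of 0.0997) and 0 of 25 scaffold genes (median 0.34, all 25 positive).

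Against WT, 5xFAD-Dp16 showed small differences. edgeR called 0 of the 10 genes, where 3.2% of all genes were called. Below an unadjusted p of 0.05 were 0 members and 9.6% of all genes. DESeq2 and limma also called 0. Values ran from -0.17 (Gria1) to 0.074 (Gria4). Intervals of 95% were taken as 1.96 SE on each side, a normal quantile, which makes them somewhat narrow for 4 libraries per group. For Grin2a this interval of the log2 fold change was -0.65 to 0.32, and for Grin2b -0.61 to 0.53. Differences of moderate size in either direction thus lie within the error. For Grin1 the interval was narrower, -0.31 to 0.15. The 5xFAD-Dp16 and 5xFAD comparisons share the WT libraries. Set side by side, Grin2a stood at -0.16 ± 0.25 in 5xFAD-Dp16 with WT and -0.87 ± 0.25 in 5xFAD with WT. Gria2 stood at -0.13 ± 0.16 in 5xFAD-Dp16 with WT and -0.54 ± 0.16 in 5xFAD with WT. Of the partner lists, 0 of 25 auxiliary, 0 of 25 scaffold and 0 of 3 editing genes were called between 5xFAD-Dp16 and WT.

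Whether the amyloid effect differed with the duplication was tested by the interaction of the genotypes. edgeR called 0 of 10 members and 0% of all genes, and 0 members were below an unadjusted p of 0.05, beside 6.5% of all genes. The largest estimates were 0.67 ± 0.35 for Grin2a (adjusted p = 0.719) and 0.67 ± 0.41 for Grin2b (adjusted p = 0.733). DESeq2 and limma also called 0. Without the low-count filter, edgeR called both genes (0.67 ± 0.15 each, adjusted p = 0.00155 for Grin2a and 0.00253 for Grin2b) in a fit that called 0.901% of 32180 genes. The estimates hardly moved, but the SEs of the 10 genes lay between 0.15 and 0.18 there, against 0.15 to 0.41 with the filter. These calls thus rest on SEs that differ little from gene to gene. In the 10 libraries of low thalamus score the estimates were 0.31 ± 0.2 for Grin2a and 0.076 ± 0.14 for Grin2b, and 6 of the 10 genes had the other sign than with all libraries. The largest there was that of Grin3a (-0.70 ± 0.15, adjusted p = 0.16), against 0.0058 ± 0.24 with all libraries, and it rests on the single 5xFAD library. With the filter, the fall in 5xFAD is therefore not shown to differ from the change between 5xFAD-Dp16 and Dp16. Between 5xFAD-Dp16 and Dp16 the same genes stood at -0.20 ± 0.25 (Grin2a) and -0.16 ± 0.29 (Grin2b), and 9 of 10 values were negative. For this pair edgeR, DESeq2 and limma called 0 members, and edgeR called 3.02% of all genes. In edgeR 0 members were below an unadjusted p of 0.05, beside 11.2% of all genes. The largest difference there was that of Gria1, which had 842, 1118, 1121 and 886 CPM in 5xFAD-Dp16 1, 8, 9 and 11, against 1224, 1334, 1411 and 898 CPM in Dp16 3, 5, 12 and 14 (-0.29 ± 0.19, adjusted p = 0.635). The groups overlapped through Dp16 14, the library of high thalamus score. Of the partner lists, 0 genes were called between 5xFAD-Dp16 and Dp16, and Syndig1 came closest (-0.46 ± 0.12, adjusted p = 0.0618).

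With both amyloid groups pooled as carriers, against both groups without transgenes as non-carriers, Grin1 fell. Its log2 fold change was -0.29 ± 0.083 (adjusted p = 0.0381), and 7 members were below an unadjusted p of 0.05, as were 25.2% of all genes. In this contrast 8.6% of all genes were called and 1.98% fell, so 1 of 10 members is not far from the share of all genes. Grin1 ranged over 414 to 679 CPM in carriers and 621 to 736 CPM in non-carriers. Gria2 (-0.36 ± 0.11, adjusted p = 0.0542), Gria1 (-0.40 ± 0.13, adjusted p = 0.0709) and Grin2a (-0.53 ± 0.18, adjusted p = 0.0778) came next. DESeq2 called 5 members and 13.8% of all genes, and limma 4 members and 8.8%, Grin1 among them in both. The fit with the thalamus score as a term also called 5, beside 10% of all genes, with Grin1 at -0.25 ± 0.062. In the 10 libraries of low score, where 5xFAD is left with 1 library, the median over the 10 genes was -0.12. With all 16 libraries it was -0.30. The count of called members was 6 without 5xFAD 10, where 19.1% of all genes were called, and 4 without Dp16 14, where 11.4% were. The call of Grin1 was lost in 11 of 16 fits without 1 library, being kept without WT 4, Dp16 14, 5xFAD-Dp16 9, 5xFAD 10 or 5xFAD 13. Of the 25 auxiliary genes 2 fell in carriers, Nsf, the ATPase that disassembles SNARE complexes and binds GluA2 (-0.29 ± 0.075, adjusted p = 0.0211), and Syndig1, a synapse protein that binds AMPA receptors (-0.29 ± 0.088, adjusted p = 0.0485). The call was lost in 3 of the 16 fits without 1 library for Nsf and in 11 for Syndig1. In the 10 libraries of low score Syndig1 stayed called (-0.45 ± 0.1, adjusted p = 0.0187) and Nsf did not (-0.22 ± 0.074, adjusted p = 0.157).

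The comparison of Dp16 with WT asked how the duplication bears on these genes without transgenes. Of the 10 genes 9 had positive values between 0.032 (Grin2a) and 0.19 (Gria4), and 0 were called by edgeR, DESeq2 or limma, where 0.228% of all genes were called. Pan-neuronal scores were higher in Dp16 (0.13 ± 0.043) than in WT (0 ± 0.086). With that score as a term of the fit, 8 of the 10 values were negative (median -0.16), and Gria4 (0.35) and Grin2d (0.30) alone were positive. The 1 member below an unadjusted p of 0.05 was Grin2c, beside 5.7% of all genes, so 1 of 10 is near that share. It had 42.8, 43.7, 38.3 and 48.2 CPM in Dp16 3, 5, 12 and 14, against 55.1, 52.1, 54.1 and 61.6 CPM in WT 2, 4, 7 and 16. The groups did not overlap, and the log2 fold change was -0.37 ± 0.11 (adjusted p = 0.48). It lay between -0.44 and -0.30 in the 16 fits without 1 library. In the libraries of low thalamus score, 3 of Dp16 and 3 of WT, Grin2c fell (-0.46 ± 0.087, adjusted p = 0.0319, edgeR), the 1 member called in a fit that called 0.382% of all genes. Grin2c is also made by astrocytes in the forebrain, and astrocyte marker scores averaged -0.12 ± 0.041 in Dp16 and 0 ± 0.098 in WT. Choroid plexus markers were lower in Dp16 as well, with 6 of 6 negative and scores of -3.40 ± 1.45 against 0 ± 1.68 in WT. Their part in the level of Grin2c was not tested. Grin2a, although on chromosome 16, had 240.1 to 401 CPM in Dp16 and 247 to 365 in WT. Of the partner lists, 0 of 25 auxiliary genes (median 0.11), 0 of 25 scaffold genes (median 0.055) and 0 of 3 editing genes (median 0.094) were called. The auxiliary gene of smallest p was Nptx2, which encodes a secreted pentraxin that clusters AMPA receptors (0.39 ± 0.16, adjusted p = 0.782).

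**Figure D5:**
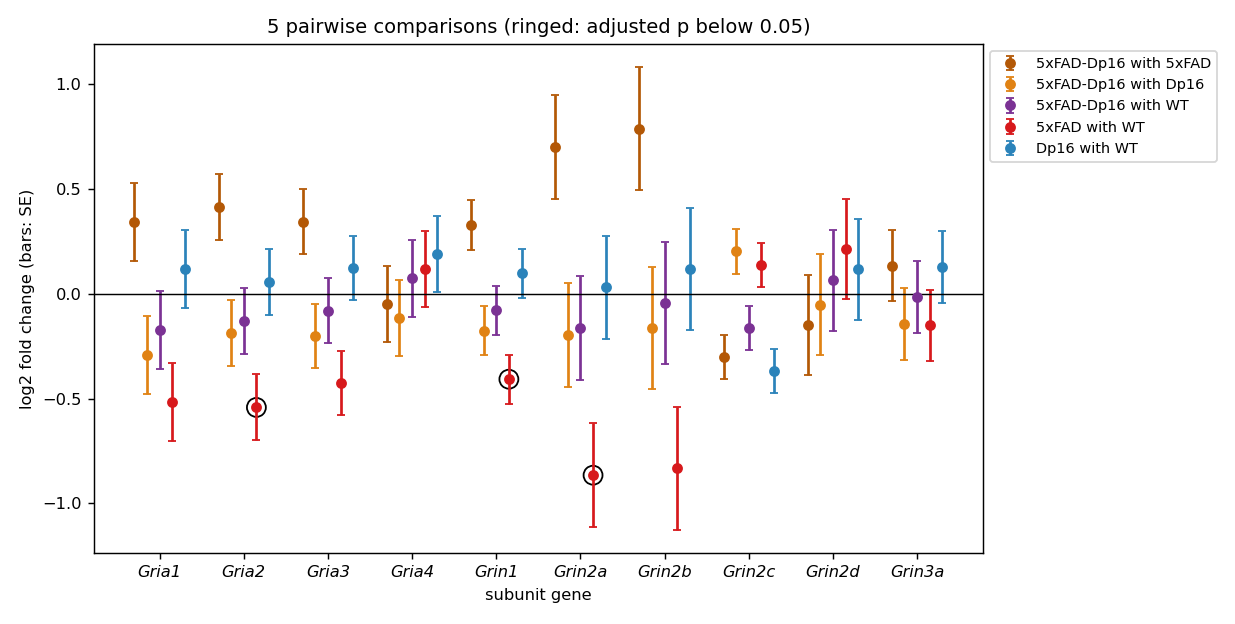
Log2 fold change (y axis, lines give the SE) of the 10 subunit genes in 5 pairwise comparisons of groups of 4 libraries, with calls at an adjusted p below 0.05 ringed. The 3 rings are Gria2, Grin1 and Grin2a in 5xFAD with WT, and Grin2c is the 1 gene below 0 in Dp16 with WT.

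Sex had no detected bearing on the 10 genes. edgeR called 0 of them between females and males, where 0.0642% of all genes were called, and DESeq2 and limma also called 0. At an unadjusted p below 0.05 edgeR had 0 members and 5.72% of all genes. Values ran from -0.19 (Grin2d) to 0.14 (Grin2a), with SEs of 0.075 to 0.21.

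The ratio of 2 subunits within a library does not depend on the scaling of the library, and 3 ratios were compared in 5 pairs of groups. Counts were not scaled to gene length here, so the ratios compare groups and not the levels of 2 genes. Grin2a to Grin2b, the mature against the juvenile GluN2 subunit, had a log2 count ratio of -0.96 ± 0.13 in 5xFAD-Dp16, -0.78 ± 0.23 in 5xFAD, -0.90 ± 0.037 in Dp16 and -0.82 ± 0.073 in WT (SD, n = 4). Per length the 2 genes were close in WT, at 21.1 ± 3.19 RPKM for Grin2a and 22.4 ± 3.03 for Grin2b. Gria1 to Gria2 had 1.30 ± 0.14 in 5xFAD-Dp16, 1.35 ± 0.1 in 5xFAD, 1.40 ± 0.055 in Dp16 and 1.34 ± 0.068 in WT. Gria2 to Grin1, which sets 1 AMPA against 1 NMDA receptor gene, had -0.64 ± 0.13 in 5xFAD-Dp16, -0.72 ± 0.24 in 5xFAD, -0.63 ± 0.2 in Dp16 and -0.57 ± 0.098 in WT. Gria2 gave 15.6% of the summed AMPA receptor RPKM in WT, so this ratio does not stand for the families. None of the 15 differences passed a two-sided exact permutation test, whose smallest possible p is 0.0286 (lowest p 0.114, adjusted p between 0.771 and 0.943 over the 15). The lowest belonged to Grin2a to Grin2b in Dp16 with WT, a difference of -0.087. A p that misses the threshold does not show equal ratios, and the difference of Grin2a to Grin2b between 5xFAD and WT was 0.038.

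Across the 16 libraries the 6 genes Gria1, Gria2, Gria3, Grin1, Grin2a and Grin2b had Pearson correlations of log2 CPM between 0.878 and 0.976 with each other. Gria4 and Grin2d had correlations of 0.698 with each other and of -0.62 to -0.32 with the 6. These points share the library, its thalamus content and its scaling, and they fall into separate classes, so the values describe the libraries only. The genes outside the 10 with the most similar pattern were found the same way, over 16 libraries. Grin2a was most like Frrs1l (r = 0.991) and Atp2b1, a plasma membrane calcium pump (0.99). Grin2b was most like Rapgef2 (0.989) and B4galt6 (0.986). Gria2 was most like Ppm1e (0.979) and Atp2b1 (0.978), and Gria1 like Ppfia2 (0.987). Grin1 was most like Fam234b (0.98) and Trim32 (0.976), and Gria3 like Mchr1 (0.974). The 4 other genes had looser neighbours. Gria4 was most like Smim17 (0.949) and Epb41l3 (0.927), Grin2d like Htr7, a serotonin receptor gene (0.917), and Usp29 (0.903). Grin2c was most like Slc15a2, a peptide transporter gene (0.886), and Nmi (0.849), and Grin3a like Unc5d (0.894) and Gprasp1 (0.894).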

How the data were processed

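Per the labels' protocols, TRIzol RNA of the hippocampus was polyA enriched, made into strand-specific libraries and read as 150 bp pairs. Tools listed in the submitters' processing notes are HISAT2 2.1.0, HTSeq 0.6.1, SAMtools 1.5 and FastQC 0.11.5, with the build GRCm38 but no strand setting or treatment of multiply mapping reads. The authors deposited raw read counts per gene for 55385 genes, and RPKM values of the same genes. Here, counts were tested with edgeR 4.0.16 (R 4.3.3; filterByExpr with a minimum count of 10, TMM, robust quasi-likelihood fit of group and sex over 16 libraries), with Benjamini-Hochberg adjustment over 17132 genes. SEs were derived from the fold change and the F statistic. Chi-square values of the counts were 6.67 or more per degree of freedom in all 24 library pairs within groups, so none of these pairs was 1 library deposited in duplicate. Pairs across groups were not compared in this way. Alternatives used DESeq2 1.42.0, limma 3.58.1 on log2(RPKM + 0.1), other scalings, no filter, no sex term, marker scores as terms, low thalamus scores only, and leaving out each library. The tests were tried on simulated data. The members and lists were chosen with earlier results of these data known. Every member is named. From each list the up to 4 called genes of smallest p were taken, or otherwise the 2 of smallest p, and some of these list genes are not reported here. Gene positions and sequences are from GENCODE M21. The 2 genes most correlated with each member over the libraries were also taken, and some of these are not reported here.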

Additional observations from a re-analysis of the deposited data

Results flagged for a closer look

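Each of the 10 genes, the log2 subunit ratios included, was screened for a library far from the other 3 of its group. This marked 3 of 52 sets of 4 libraries, and chance marks about 1 in 20. Gria3 had 116.7 CPM in 5xFAD-Dp16 1, where the others had 135 to 138. Grin1 had 633 CPM in Dp16 14, where the others had 720.3 to 736. Grin2d had 40.3 CPM in Dp16 14, where the others had 21.2 to 24.2. Both libraries had the highest thalamus score of their group.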

How the results depend on the processing

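The 3 calls in 5xFAD with WT were 6 without a low-count filter, where 8.37% of all genes were called. The SEs of these 6 were 0.10 to 0.11 there, against 0.12 to 0.29 with the filter. The count was 0 with upper quartile scaling (7.75% of all genes) and with the pan-neuronal score as a term (2.94%). Leaving out 1 library gave between 0 and 6 calls, in fits that called 3.22% to 20% of all genes. In 5xFAD-Dp16 with 5xFAD the count was 6 without the filter (5.15% of all genes) and 1 with DESeq2 (4.2%). Without 1 library it was 0 to 6, in fits that called 0.183% to 11.7% of all genes. In the interaction it was 2 without the filter, and in Dp16 with WT 1 in the libraries of low thalamus score. In amyloid carriers the count was 6 without the filter (8.68% of all genes), 5 with DESeq2 (13.8%) and 4 with limma (8.8%). It was 2 without the sex term (9.13%), 5 with the thalamus score (10%) and 0 with the pan-neuronal score (3.9%). Leave-out fits gave 0 to 6 calls for carriers and called 6.01% to 19.1% of all genes. The count for the slope on the thalamus score was 0 to 8 without 1 library. With all 16 libraries 11.2% of all genes changed with the score, and the share in the fit with 8 is not given here. Signs turned in 5xFAD with WT for Gria3 (0.0041, low-score libraries), Gria4 (-0.041 with the thalamus score, -0.084 in low-score libraries, -0.11 with the pan-neuronal score, -0.079 to 0.24 without 1 library), Grin2d (-0.041, pan-neuronal), Grin3a (0.44 low-score, 0.060 pan-neuronal) and Adarb1 (-0.078 thalamus, -0.13 low-score, -0.25 pan-neuronal). In 5xFAD-Dp16 with 5xFAD they turned for Gria3 (-0.053, low-score), Gria4 (0.12 thalamus, 0.21 low-score, 0.19 pan-neuronal, -0.16 to 0.15 without 1 library), Grin2d (0.031 thalamus, 0.11 pan-neuronal) and Grin3a (-0.54 low-score, -0.080 pan-neuronal, -0.047 to 0.35 without 1 library). In Dp16 with WT the pan-neuronal term turned 7 genes, Gria1 (-0.16), Gria2 (-0.18), Gria3 (-0.16), Grin1 (-0.082), Grin2a (-0.24), Grin2b (-0.24) and Grin3a (-0.053). There Grin2a was -0.0055 with limma, and without 1 library Grin2a was -0.064 to 0.14, Gria2 -0.029 to 0.17 and Grin2d -0.12 to 0.30. In the interaction the low-score libraries turned Gria1 (-0.15), Gria3 (-0.21), Gria4 (0.062), Grin1 (-0.071), Grin2c (-0.016) and Grin3a (-0.70). There Grin3a was also -0.030 with upper quartile scaling, -0.042 with limma, -0.013 without the sex term, -0.027 with the pan-neuronal score and -0.18 to 0.22 without 1 library, and Grin2c -0.028 to 0.14 without 1 library. For ratios, Grin2a to Grin2b was -0.23 in low-score libraries and -0.034 to 0.13 without 1 library in 5xFAD with WT, and 0.14 in low-score libraries in 5xFAD-Dp16 with 5xFAD. Gria1 to Gria2 was -0.027 to 0.046 in 5xFAD with WT and -0.096 to 0.0090 in 5xFAD-Dp16 with 5xFAD without 1 library, and Gria2 to Grin1 -0.013 to 0.18 in 5xFAD-Dp16 with 5xFAD without 1 library. The causes were not tested. The fit without a sex term gives no value for females with males. No paired analysis was possible because the replicate numbers are unique to each library.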
